A study of Mus musculus with 16 samples.

Results

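The S100 genes encode small calcium-binding proteins, and 7 of them were followed in mouse muscle: S100a1, S100a4, S100a6, S100a11, S100a13, S100a16 and S100b. They were 7 of the 30037 genes in the count table and were selected as a family on the measured log2 fold change of S100a4, which was among the largest falls when Dnm2SL/+ mice received ASO1. That contrast is therefore given for them only as a description, and S100a4 has no test in any comparison that includes a Dnm2SL/+ group. All 7 passed the filter on low counts, as did 15649 genes in all (52.1%). RNA was sequenced from the tibialis anterior, the muscle at the front of the shin, of male C57BL/6N mice aged 7 weeks. The groups were wild-type mice given a control antisense oligonucleotide (WT ASO Control, n = 4), heterozygous Dnm2SL/+ mice given the same control (Dnm2SL/+ ASO Control, n = 6), Dnm2SL/+ mice given ASO1 (Dnm2SL/+ ASO1, n = 4) and wild-type mice given ASO1 (WT ASO1, n = 2). Dnm2 encodes dynamin 2, a GTPase that cuts membranes, the series title names Dnm2SL/+ as a model of autosomal dominant centronuclear myopathy, and ASO1 is an oligonucleotide meant to lower Dnm2. Every mouse carried an oligonucleotide, so that no comparison with uninjected muscle was possible, and its dose and route were not given in the sources used here.

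S100 proteins work mostly as dimers. Calcium binding to their paired EF-hand loops opens a face that docks onto target proteins, among them annexins, myosins, calcium channels and pumps, and some S100 proteins are secreted and act on cell surface receptors. In muscle, S100a1 is the form of the fibre itself and binds the ryanodine receptor and the SERCA pump, S100b is best known from Schwann cells and other glia, and S100a4 and S100a6 are known from fibroblasts, immune cells and regenerating tissue. Most of the family lies in one cluster on mouse chromosome 3.

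Of the 7 genes, 6 were on chromosome 3 and S100b was on chromosome 10. The start regions of 4 of them are shown because they set apart the gene with the largest difference (S100a4), a pair that shares its start region yet differed in size of response (S100a13 with S100a1), a gene with a small difference (S100a11) and the one with none called (S100b). Each is a RefSeq window of build GRCm38.p6, from 250 bases before the start site to 50 after it, on the plus strand: chr3:90603520-90603819 for S100a4, chr3:90514185-90514484 for S100a13, chr3:93520246-93520545 for S100a11 and chr10:76253586-76253885 for S100b. Capitals mark motif matches, except in S100a13, where they mark the 42 bases between the GENCODE start sites of S100a1 and S100a13.
S100a4: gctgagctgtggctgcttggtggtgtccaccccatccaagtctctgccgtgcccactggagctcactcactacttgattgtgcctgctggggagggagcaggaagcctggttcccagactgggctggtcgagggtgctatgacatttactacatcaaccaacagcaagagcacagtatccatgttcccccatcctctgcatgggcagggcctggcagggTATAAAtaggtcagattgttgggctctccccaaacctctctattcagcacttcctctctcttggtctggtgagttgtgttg
S100a13: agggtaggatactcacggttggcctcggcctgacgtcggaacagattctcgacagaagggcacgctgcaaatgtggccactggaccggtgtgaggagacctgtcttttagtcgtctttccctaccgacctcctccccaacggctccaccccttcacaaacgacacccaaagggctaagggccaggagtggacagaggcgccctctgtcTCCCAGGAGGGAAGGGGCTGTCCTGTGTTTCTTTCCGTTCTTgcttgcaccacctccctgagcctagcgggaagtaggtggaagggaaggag
S100a11: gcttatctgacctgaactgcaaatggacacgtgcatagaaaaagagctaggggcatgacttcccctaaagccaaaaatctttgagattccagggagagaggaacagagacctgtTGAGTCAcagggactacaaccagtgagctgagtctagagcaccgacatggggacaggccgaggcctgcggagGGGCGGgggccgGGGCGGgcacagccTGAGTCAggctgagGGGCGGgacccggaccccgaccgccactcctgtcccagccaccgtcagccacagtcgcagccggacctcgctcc
S100b: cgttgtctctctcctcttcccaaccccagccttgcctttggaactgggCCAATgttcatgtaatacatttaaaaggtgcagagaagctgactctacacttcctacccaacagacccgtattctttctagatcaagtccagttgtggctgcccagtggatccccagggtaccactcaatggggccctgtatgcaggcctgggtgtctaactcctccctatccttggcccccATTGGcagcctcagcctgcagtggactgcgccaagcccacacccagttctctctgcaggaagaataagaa

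Motifs were searched on both strands of these windows, and their frequency was taken over all 32851 windows of the same length. The TATA box, read as the letters TATAAA, was in 13.6% of all windows. The AP-1 site, read as the letters TGANTCA, was in 7.81%. The box of the letters CCAAT was in 37.4%, the GC box of the letters GGGCGG in 35.7% and the E-box of the letters CAGCTG in 16.3%. S100a4 held a TATA box that began at −31. S100a11 held AP-1 letters at −136 and −38 and GC boxes at −64, −52 and −24, and S100b held the letters CCAAT at −202 and, on the other strand, at −20. S100a6 held CCAAT on the other strand at −228, and the second of the windows of S100a16 held an AP-1 site, an E-box and a GC box. No match overlapped another, and the windows of S100a1 and S100a13 held none of the letters searched. Those windows shared 204 identical bases, since both genes start there on opposite strands. A match describes the letters only and names no bound factor.

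Library totals ranged from 30148163 to 33667052 counts. Levels are given as CPM, the counts of a gene per 1000000 counts of the library after TMM scaling, and differences are log2 fold changes (log2FC) with their SE from edgeR. The level of Dnm2 in WT ASO Control was 52.8 ± 5.24 CPM (SD, n = 4), against 54.9 ± 11.7 (n = 6) in Dnm2SL/+ ASO Control, 30.6 ± 3.88 (n = 4) in Dnm2SL/+ ASO1 and 24.0 ± 1.43 (n = 2) in WT ASO1. It was at 35.2 CPM in Dnm2SL/+ ASO Control replicate 6, within the range of the ASO1-treated mutants. WT ASO Control replicate 1 also stood apart, with 2814 CPM summed over 11 fibroblast markers against 1114 to 1610 in the other WT controls. Some results of the members are also given without these libraries, but those of S100a10 and of the other gene lists are not. Markers of skeletal muscle (Ckm, Acta1, Myh4, Ttn, Mb and Des) were abundant in every library, but their sums were lower in Dnm2SL/+ ASO Control (84277 to 96144 CPM) than in WT ASO Control (112208 to 124141 CPM), with 101966 to 108858 CPM in Dnm2SL/+ ASO1 and 114217 to 131977 CPM in WT ASO1. In bulk muscle, fewer cells of a type and less RNA per cell cannot be told apart.

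Under the control oligonucleotide, 6 of the 7 S100 genes were higher in every Dnm2SL/+ library than in every WT library. The same held for 11.3% of all genes. Of these 6, S100a4 was given no test, and the other 5 were called higher, against 15.7% of all genes. The gap was widest for S100a4, followed by S100a13 and S100a6, and it was narrow for S100a16, S100a11 and S100a1. S100b, the glial member, did not pass the test.

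S100a4, also called metastasin, binds non-muscle myosin IIA and affects cell motility. Its gene lies at chr3:90603771-90606045 on the plus strand (ENSMUSG00000001020, GRCm38). It was at 4.20, 1.65, 1.45 and 0.84 CPM in the WT ASO Control libraries and at 18.2, 37.2, 28.9, 38.1, 33.9 and 14.7 CPM in the Dnm2SL/+ ASO Control libraries. All 6 mutant libraries were above all 4 WT libraries, although the mutants themselves differed, with replicates 1 and 6 lowest. The means were 2.03 ± 1.48 CPM (SD, n = 4) and 28.5 ± 9.94 CPM (n = 6), a log2FC of 3.79 ± 0.46 (SE), or 13.9-fold, given with no test. Without WT ASO Control replicate 1, the highest WT library, the log2FC was 4.42, and without that library and Dnm2SL/+ ASO Control replicate 6 it was 4.57. Of the 584 exon bases of S100a4, 302 (51.7%) are also exon of Gm42674 on the same strand in GENCODE M21, so reads there could be assigned to neither gene and the level of S100a4 could be understated in all groups.

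S100a13 takes part in the export of Fgf1, a growth factor that leaves cells by a non-classical route. The gene (ENSMUSG00000042312) lies at chr3:90514435-90524581 on the plus strand. It was at 8.61, 7.22, 6.88 and 8.07 CPM in WT ASO Control and at 26.2, 34.7, 24.6, 32.2, 32.1 and 21.5 CPM in Dnm2SL/+ ASO Control. The groups lay far apart, and S100a13 rose 3.71-fold, with a log2FC of 1.89 ± 0.14 (SE, 95% CI 1.60 to 2.18, adjusted p = 5.1e-07). The WT libraries were tight, at 7.70 ± 0.790 CPM (SD, n = 4), whereas the mutants were at 28.6 ± 5.16 CPM (n = 6). Replicates 1, 3 and 6 were the lowest mutants for S100a13, as they were for S100a4.

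S100a6, or calcyclin, binds the ubiquitin ligase adaptor Cacybp and is high in dividing cells. The gene (ENSMUSG00000001025) lies at chr3:90612882-90624181 on the plus strand. It was at 33.8, 16.6, 20.4 and 15.5 CPM in WT ASO Control and at 54.3, 69.3, 60.0, 62.0, 65.1 and 65.4 CPM in Dnm2SL/+ ASO Control. The groups did not overlap, with WT ASO Control replicate 1 again the highest WT library. S100a6 rose 2.90-fold, with a log2FC of 1.54 ± 0.18 (SE, 95% CI 1.15 to 1.92, adjusted p = 1.7e-05), and without that library the log2FC was 1.84.

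S100a16, a widely expressed member that binds calcium weakly, was at 39.0, 35.6, 31.3 and 35.0 CPM in WT ASO Control. In Dnm2SL/+ ASO Control it was at 53.6, 62.3, 57.7, 58.3, 60.4 and 54.5 CPM. The gene (ENSMUSG00000074457, chr3:90537254-90543151, plus strand) rose 1.64-fold with little spread (log2FC 0.71 ± 0.06 SE, 95% CI 0.58 to 0.85, adjusted p = 2.2e-06).

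S100a11, which binds annexin A1 and takes part in the repair of torn plasma membranes, was at 6.57, 4.32, 5.68 and 4.33 CPM in WT ASO Control. In Dnm2SL/+ ASO Control it was at 7.72, 9.77, 7.61, 7.81, 7.58 and 9.11 CPM, with all mutants above all WT libraries. This gene (ENSMUSG00000027907, chr3:93520488-93526287, plus strand) rose 1.58-fold, with a log2FC of 0.66 ± 0.14 (SE, 95% CI 0.36 to 0.96, adjusted p = 0.0023).

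S100a1, the member of the muscle fibre, was at 79.1, 77.5, 71.4 and 96.8 CPM in WT ASO Control, where replicate 4 was highest. The label of that replicate was corrected by the submitters after deposit, and the corrected label was used. In Dnm2SL/+ ASO Control the gene (ENSMUSG00000044080, chr3:90511034-90514392, minus strand) was at 106, 109, 100.5, 109.8, 108.6 and 111 CPM, above every WT library. It rose 1.32-fold, with a log2FC of 0.40 ± 0.07 (SE, 95% CI 0.25 to 0.56, adjusted p = 5.7e-04). S100a1 and S100a13 are transcribed away from the start region shown above, and the 95% intervals of their log2FC did not overlap, though the difference between the 2 genes was not tested.

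S100b (ENSMUSG00000033208, chr10:76253853-76261159, plus strand) was the least abundant member, at 0.54, 1.28, 1.101 and 0.92 CPM in WT ASO Control and 0.93, 1.07, 2.06, 1.18, 0.68 and 0.96 CPM in Dnm2SL/+ ASO Control. The groups overlapped throughout, and the log2FC of 0.26 had a 95% CI of −0.48 to 1.00 (adjusted p = 0.61). An increase of up to 1.00 on the log2 scale is therefore not excluded for S100b at this depth.

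Of the 6 members given a test, 5 rose and 0 fell between the genotypes, against 15.7% of all genes tested that were called higher. Of the same 6, 5 had every mutant library above every WT library, against 11.3% of all genes. The median log2FC was 0.69 over the 6 members and 0.00 over all genes tested. S100a4 is left out of these counts, since its values in the mutant controls entered the choice of the family. The other 6 members were also chosen with earlier results of these data known. The shares here and in the later comparisons therefore describe the list and are not a test of the family. Of 4 further S100 genes tested, 1 rose and 0 fell. The number of members called was 5 under each of the 21 alternatives tried. Without WT ASO Control replicate 1 and Dnm2SL/+ ASO Control replicate 6, the log2FC was 2.03 for S100a13, 1.84 for S100a6 and 0.80 for S100a16. It was 0.77 for S100a11, 0.40 for S100a1 and 0.12 for S100b.

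**Figure D1:**
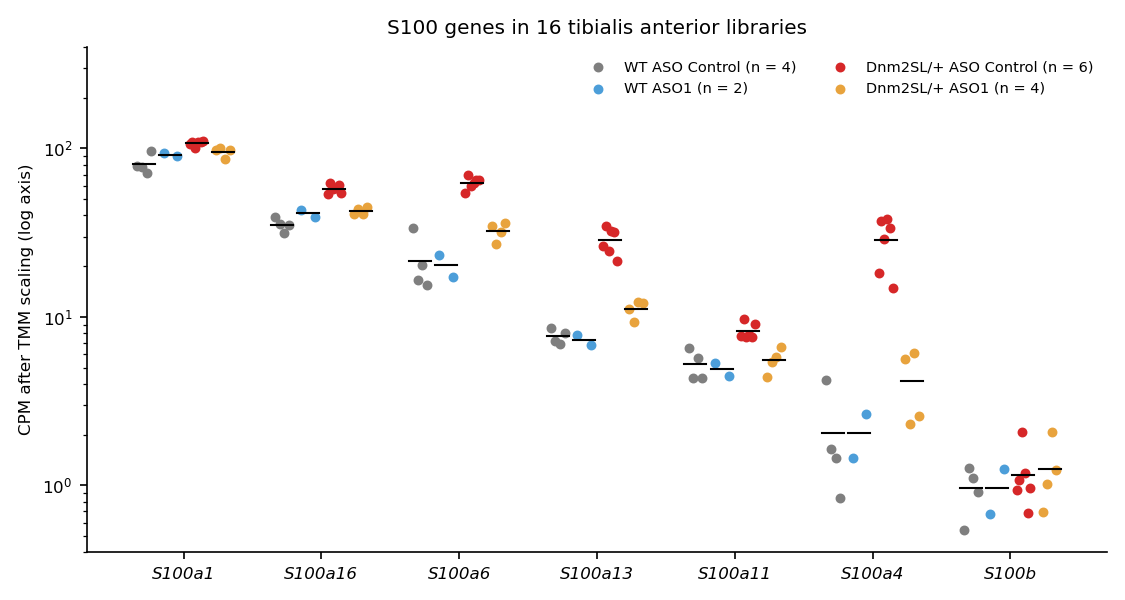
Level of each S100 gene in each of the 16 libraries, in CPM after TMM scaling on a log axis, with points for libraries, coloured by group, and black lines for group means. The Dnm2SL/+ ASO Control points lie above those of WT ASO Control for every gene but S100b, and for S100a4 they run from 14.7 to 38.1 CPM against 0.84 to 4.20 CPM.

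Since the genes differ in length, levels between genes were compared as CPM per kilobase of exon. S100a1 led in each group, at 117 CPM per kb in WT ASO Control and 155 in Dnm2SL/+ ASO Control. In WT ASO Control it was followed by S100a16 (21.8 CPM per kb), S100a6 (15.8), S100a13 (10.8), S100a11 (10.2), S100a4 (3.48) and S100b (0.65). The libraries of S100a16 and S100a6, S100a6 and S100a13, and S100a13 and S100a11 overlapped, so those neighbours are not ordered beyond their spread. In Dnm2SL/+ ASO Control S100a4 took the second place, at 48.8 CPM per kb, ahead of S100a6 (45.9), S100a13 (39.9), S100a16 (35.7), S100a11 (16.2) and S100b (0.77), and the libraries of the neighbours from S100a4 down to S100a16 overlapped. In Dnm2SL/+ ASO1 S100a4 was back in sixth place, at 7.11 CPM per kb, below S100a11 (10.8), with overlapping libraries. That place depends on the exon bases shared with Gm42674. If no read was counted there, the 282 bases left would put S100a4 at 14.7 CPM per kb in Dnm2SL/+ ASO1, above S100a11 with libraries that still overlap, at 7.21 in WT ASO Control and at 101 in Dnm2SL/+ ASO Control.

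In Dnm2SL/+ mice, 5 of the 7 genes were lower in every ASO1 library than in every control library, and S100a4 was at 14.6% of its control level. This is the contrast from which the family was chosen, and 6.24% of all genes had the same separation. S100a4 was at 5.66, 2.31, 6.08 and 2.57 CPM in Dnm2SL/+ ASO1, a log2FC of −2.78 ± 0.42 (SE), which ranked 55th from the lowest of all genes tested. S100a13 was at 11.1, 9.27, 12.3 and 12.04 CPM (log2FC −1.35), and S100a6 was at 34.7, 27.0, 31.8 and 36.1 CPM (log2FC −0.95). S100a11 was at 4.37, 5.41, 5.76 and 6.62 CPM (log2FC −0.58), and S100a16 was at 41.0, 43.5, 41.0 and 44.6 CPM (log2FC −0.44). S100a1, at 97.2, 101, 86.5 and 98.5 CPM, overlapped the mutant controls (log2FC −0.16). S100b, at 0.69, 1.02, 2.06 and 1.24 CPM, overlapped them too (log2FC 0.12).

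Dnm2SL/+ ASO1 muscle was next set against WT ASO Control, to see how far each gene still stood from the wild-type level. S100a13 and S100a16 remained above it in every library and passed the test by a narrow margin, while S100a11 was near it. Of the 6 members tested 2 rose and 0 fell, against 1.66% of all genes called higher, and the same 2 had groups that did not overlap, against 4.77% of all genes. S100a13 had a log2FC of 0.54 ± 0.14 (SE, 95% CI 0.23 to 0.84, adjusted p = 0.045). S100a16 had a log2FC of 0.27 ± 0.07 (SE, 95% CI 0.12 to 0.42, adjusted p = 0.038). S100a6 (0.59, adjusted p = 0.089), S100a1 (0.24, adjusted p = 0.091), S100b (0.38, adjusted p = 0.61) and S100a11 (0.08, adjusted p = 0.8) did not pass. S100a4 had a log2FC of 1.02 ± 0.47 (SE) with overlapping libraries, given with no test, and 1.65 without WT ASO Control replicate 1.

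These calls lay near the threshold, and leaving out any of several libraries undid them. The log2FC with 1 library left out was 0.49 to 0.62 for S100a13 and 0.22 to 0.32 for S100a16. That of S100a13 was lost when WT ASO Control replicate 2, 3 or 4 or any of the 4 Dnm2SL/+ ASO1 libraries was left out (adjusted p = 0.056 to 0.12), and that of S100a16 without WT ASO Control replicate 2, 3 or 4 or Dnm2SL/+ ASO1 replicate 2 or 4 (adjusted p = 0.071 to 0.11). S100a6 passed without WT ASO Control replicate 1, with a log2FC of 0.89 (adjusted p = 0.0053), and S100a1 passed without WT ASO Control replicate 4, with a log2FC of 0.33 (adjusted p = 0.022).

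In WT mice, ASO1 brought no S100 gene past the test, in a comparison that rested on 2 treated libraries. Of the 7 members 0 were called, as were 0% of all genes by edgeR, where 1605 of 15649 genes had an unadjusted p under 0.05 and DESeq2 called 101. S100a4 was at 1.45 and 2.66 CPM in WT ASO1, within the range of the WT controls, and its log2FC of 0.00 had a 95% CI of −1.30 to 1.30 (adjusted p = 1). Without WT ASO Control replicate 1 the log2FC of S100a4 was 0.63 (adjusted p = 0.76) and that of S100a6 was 0.21 (adjusted p = 0.69), with neither called. S100a6 was at 23.2 and 17.4 CPM (log2FC −0.09, 95% CI −0.59 to 0.41), S100a13 at 7.82 and 6.83 CPM (log2FC −0.07, 95% CI −0.45 to 0.31) and S100a11 at 5.34 and 4.46 CPM (log2FC −0.09, 95% CI −0.50 to 0.32). S100b was at 0.67 and 1.26 CPM (log2FC 0.01, 95% CI −1.01 to 1.02). These intervals leave room for changes in either direction. S100a16, at 43.0 and 39.3 CPM, was the 1 member above all WT controls, as 9.72% of all genes were. Its log2FC of 0.22 had a 95% CI of 0.04 to 0.40 and an adjusted p of 0.39. S100a1, at 93.6 and 89.7 CPM, had a log2FC of 0.17 (95% CI −0.03 to 0.38, adjusted p = 0.55).

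Between the genotypes under ASO1, with the same 2 WT libraries, 0 of the 6 members tested were called, against 1.02% of all genes called higher. DESeq2 called 1 of them. S100a13 (log2FC 0.61, 95% CI 0.22 to 0.99, adjusted p = 0.072) and S100a6 (log2FC 0.68, 95% CI 0.16 to 1.19, adjusted p = 0.12) had all mutant libraries above both WT libraries, and 12.8% of all genes did. S100a16 had a log2FC of 0.05 (95% CI −0.13 to 0.23), S100a1 of 0.06 (95% CI −0.14 to 0.27) and S100a11 of 0.18 (95% CI −0.23 to 0.59). S100b had a log2FC of 0.38 (95% CI −0.63 to 1.39), and S100a4 one of 1.01 ± 0.60 (SE), with overlapping libraries and no test.

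**Figure D2:**
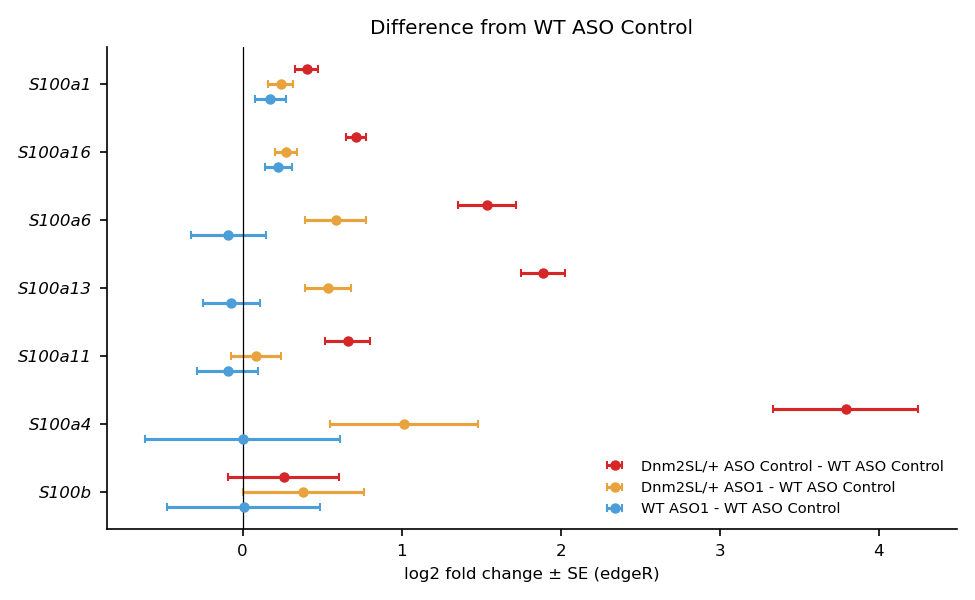
The log2 fold change of each S100 gene from WT ASO Control in the other 3 groups, with bars for the SE from edgeR. For S100a4 the values are 3.79 in Dnm2SL/+ ASO Control, 1.02 in Dnm2SL/+ ASO1 and 0.00 in WT ASO1.

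On chromosome 3, the genes outside the family that were tested beside the cluster differed little in level between the genotypes. Within 200 kb of the stretch from S100a1 to S100a9, 7 genes outside the family were tested, all on the S100a1 side. Of these, 0 rose and 1 fell, beside 15.7% of all genes called higher and 16.4% lower. Gatad2b, a subunit of a chromatin remodelling complex, was the 1 that fell (log2FC −0.26, adjusted p = 0.032). No gene outside the family was tested on the S100a9 side or within 200 kb of S100a11 and S100a10. The log2FC of these 7 ranged from −0.26 to 0.17. Chtop, the coding gene next to S100a1, went from 99.2 ± 1.42 CPM (SD, n = 4) in the WT controls to 90.4 ± 4.55 CPM (n = 6) in the mutant controls (log2FC −0.13, adjusted p = 0.061). S100a1, S100a13, S100a16 and S100a6 of the same stretch rose. Those at its far end, S100a8 and S100a9, which together form the calprotectin of neutrophils, and S100a7a were at under 1 CPM on average in each group. Their log2FC were 0.37, −0.31 and −0.34, and none passed the test (adjusted p = 0.77, 0.8 and 0.55).

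**Figure D3:**
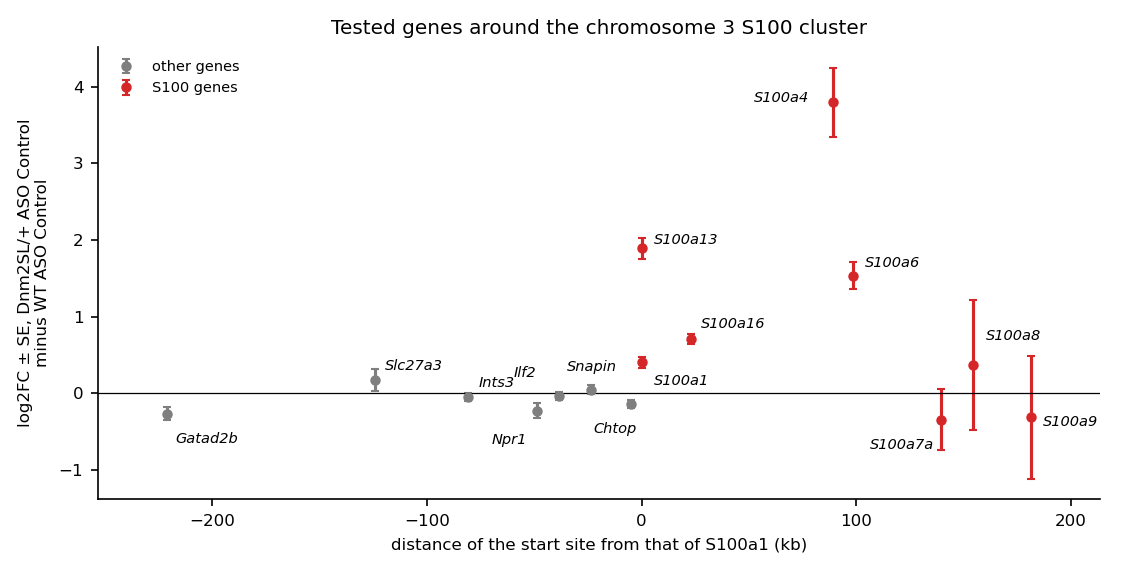
The log2 fold change between the genotypes under ASO Control (± SE) for each tested gene around the chromosome 3 cluster, against the distance of its start site from that of S100a1 in kb. S100 genes are in red and other genes in grey. The latter all lie on the S100a1 side, between −0.26 and 0.17, while S100a4 is at 3.79.

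The table held 17 S100 genes. Of the 10 outside the 7 members, 4 passed the filter, and S100a10 was the 1 of them that rose. S100a10, the partner of annexin A2 that has lost calcium binding, lies next to S100a11, and rose 2.82-fold, from 16.5 ± 4.89 CPM (SD, n = 4) to 46.6 ± 4.98 CPM (n = 6), with a log2FC SE of 0.18 and an adjusted p of 2.0e-05. In Dnm2SL/+ ASO1 it was at 21.8 ± 5.85 CPM (n = 4). S100a2, S100a3, S100a5, S100a14, S100g and S100z did not pass the filter. Among these, chosen after its values were seen, S100a3 had 12, 8, 2, 4, 6 and 8 counts in the Dnm2SL/+ ASO Control libraries and at most 1 count in any other library. It lies upstream of S100a4 and shares 144 exon bases with the same Gm42674.

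Among 27 genes for known binding partners and receptors of S100 proteins, 26 were tested. Between the genotypes 10 rose and 6 fell, with a median log2FC of 0.22 against 0.00 over all genes, of which 15.7% were called higher and 16.4% lower. Of the 5 with the smallest p, Ahnak2, a giant scaffold protein of the plasma membrane and costameres, rose 24.1-fold, from 4.02 ± 1.28 CPM (SD, n = 4) to 97.3 ± 22.2 CPM (n = 6, adjusted p = 4.5e-07). Anxa2, the annexin that S100a10 binds, rose 3.95-fold (adjusted p = 6.4e-06), and Ppfibp1, the liprin beta-1 bound by S100a4, rose 1.72-fold (adjusted p = 2.0e-05). Capza2, a subunit of the actin-capping protein, fell (log2FC −0.45, adjusted p = 5.5e-05), as did Ryr1, the calcium release channel that S100a1 binds (log2FC −0.59, adjusted p = 2.5e-04). The partners and receptors that follow were named after their values were seen, for their known ties to the members, and moved differently from each other. Anxa1, bound by S100a11, rose 2.66-fold (adjusted p = 0.0015), Fgf1, exported with S100a13, fell (log2FC −0.48, adjusted p = 0.034), and Atp2a1, the fast SERCA pump, fell (log2FC −0.48, adjusted p = 6.7e-04). Myh9, the myosin bound by S100a4, had a log2FC of 0.20 (adjusted p = 0.12), and Cacybp, the partner of S100a6, one of −0.02 (adjusted p = 0.87). Of the surface receptors, Tlr4 rose 3.02-fold (adjusted p = 0.0013), while Ager had a log2FC of 0.33 (adjusted p = 0.47). In Dnm2SL/+ ASO1 against WT ASO Control 1 partner rose (Ahnak2, 3.72-fold, adjusted p = 0.0061) and 1 fell (Ryr1, log2FC −0.55, adjusted p = 0.012), where 1.66% of all genes were called higher and 2.86% lower.

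Among 15 other EF-hand genes, all tested, 6 rose and 5 fell between the genotypes, with a median log2FC of 0.11, beside the 15.7% and 16.4% of all genes called higher and lower. Capns1, the small subunit of calpains, rose 1.70-fold (adjusted p = 4.3e-06), and Efhd2 rose 1.57-fold (adjusted p = 7.8e-04). Calm3, which encodes calmodulin, the general calcium sensor of cells, fell (log2FC −0.95, adjusted p = 4.3e-06), as did Pvalb, the calcium buffer of fast fibres (log2FC −0.55, adjusted p = 6.3e-04). In Dnm2SL/+ ASO1 against WT ASO Control 0 rose and 2 fell, among them Calm3 (log2FC −0.43, adjusted p = 0.029), beside 2.86% of all genes called lower.

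Markers of fibroblasts and macrophages, cells that can carry S100a4 and S100a6, moved with the genotype. Of all genes 15.7% were called higher and 16.4% lower. Of 11 fibroblast markers 6 rose and 0 fell, and their summed level was 1114 to 2814 CPM in WT ASO Control, 2689 to 3532 in Dnm2SL/+ ASO Control, 1364 to 2726 in Dnm2SL/+ ASO1 and 871 to 1351 in WT ASO1. Of 14 macrophage markers 5 rose and 0 fell, at 35.8 to 85.0 CPM in WT ASO Control, 68.0 to 138 in Dnm2SL/+ ASO Control, 44.3 to 104 in Dnm2SL/+ ASO1 and 27.7 to 66.3 in WT ASO1. Of 5 tendon markers 1 rose and 0 fell, which is near the share over all genes. Their sums overlapped between the genotypes, at 99.9 to 502 CPM in WT ASO Control and 209 to 517 CPM in Dnm2SL/+ ASO Control. They were 48.8 to 324 CPM in Dnm2SL/+ ASO1 and 182 to 213 CPM in WT ASO1. No marker of these lists was at 0 in all libraries. WT ASO Control replicate 1 was the highest of its group in the fibroblast, macrophage and tendon sums. It was also highest in S100a4, S100a6, S100a11, S100a13 and S100a16, and not in S100a1 or S100b. Among the mutant controls, replicates 1 and 6 had the lowest S100a4. They had the highest macrophage sums (138 and 135 CPM) and the highest tendon sums (364 and 517 CPM). Their fibroblast sums were 3532 CPM, the highest of the group, and 3143 CPM. In Dnm2SL/+ ASO1, replicates 1 and 3 had the highest tendon sums (324 and 315 CPM) and the highest S100a4 (5.66 and 6.08 CPM). The fibroblast sums (2434 and 2726 CPM) and macrophage sums (104 and 93.5 CPM) were instead highest in replicates 3 and 4. Replicate 4 was at 2.57 CPM of S100a4. The part of these cells in the S100 differences was not tested.

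Genes of the fibre types moved with the genotype too, beside S100a1, the member of the fibre itself. Of 8 fast fibre genes 1 rose and 5 fell, and their summed level was 99746 to 110210 CPM in WT ASO Control, 72671 to 84110 in Dnm2SL/+ ASO Control, 83376 to 95250 in Dnm2SL/+ ASO1 and 98528 to 126069 in WT ASO1. Of 7 slow fibre genes 5 rose and 0 fell, at 114 to 226 CPM in WT ASO Control, 166 to 454 in Dnm2SL/+ ASO Control, 189 to 342 in Dnm2SL/+ ASO1 and 114 to 199.7 in WT ASO1. Of the 6 skeletal muscle markers 2 rose and 3 fell. For each of these lists the background was 15.7% of all genes called higher and 16.4% called lower. The part of the fibre genes in the S100 differences was not tested.

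Markers of Schwann cells, the glia of nerve, were compared with S100b. Between the genotypes, 15.7% of all genes were called higher and 16.4% lower. Of 10 Schwann cell markers 1 rose and 0 fell between the genotypes, with summed levels of 60.0 to 167 CPM in WT ASO Control, 92.6 to 278 in Dnm2SL/+ ASO Control, 71.5 to 229 in Dnm2SL/+ ASO1 and 54.1 to 116 in WT ASO1, and none of the markers was at 0 in all libraries. The 2 libraries with 2.06 CPM of S100b, replicate 3 of Dnm2SL/+ ASO Control and replicate 3 of Dnm2SL/+ ASO1, had the highest Schwann sums (278 and 229 CPM). The library with the lowest S100b, WT ASO Control replicate 1 at 0.54 CPM, had a Schwann sum of 60.0 CPM, the lowest of its group.

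**Figure D4:**
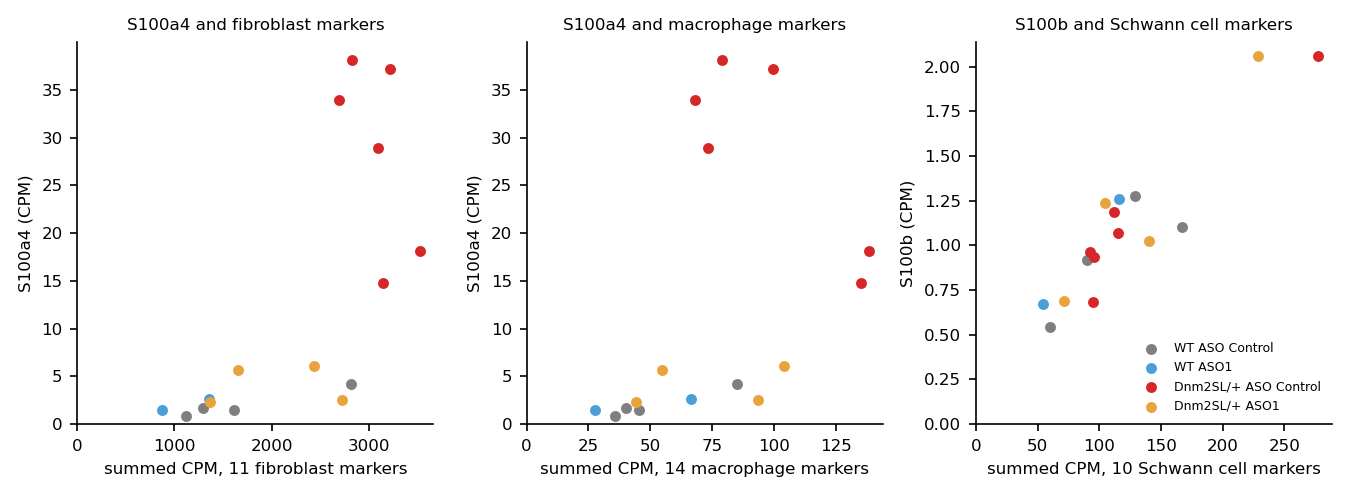
Level of S100a4 against the summed level of 11 fibroblast or 14 macrophage markers, and of S100b against that of 10 Schwann cell markers, all in CPM, with 1 point per library coloured by group. The Dnm2SL/+ ASO Control points lie above the rest for S100a4, at 14.7 CPM or more, and the points at the upper right of the S100b panel are those with 2.06 CPM.

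The genes most like 3 of the members over all 16 libraries were found by the root mean square (RMS) difference of standardised log2 CPM, where 0 is an identical pattern and 11036 genes were compared. S100a4 was nearest to Anxa4, an annexin (RMS 0.196), Fst, the activin and myostatin antagonist follistatin (0.213), Pam, a peptide-amidating enzyme (0.223), Eda2r, a receptor of the TNF family (0.231), and Slc25a24, a mitochondrial carrier regulated by calcium (0.233), against a median RMS of 1.47 over all genes. Eda2r averaged 14.04 CPM in WT ASO Control, 130.5 in Dnm2SL/+ ASO Control and 18.5 in Dnm2SL/+ ASO1. Among the genes nearest to S100b were Mbp (RMS 0.466), Cldn19 (0.513), Pmp22 (0.533) and Cnp (0.538), all known from myelinating glia, against a median of 1.44. Of these, Mbp and Pmp22 are also in the Schwann list. S100a1 was nearest to Lamtor1 (0.338), Mrps12 (0.368), Prdx2 (0.371), Dpp3 (0.391) and Txn2 (0.393), against a median of 1.45. Among the members, S100a13 was nearest to S100a4 (RMS 0.297), then S100a6 (0.347), S100a16 (0.406), S100a11 (0.605) and S100a1 (0.818), while S100b was 1.32 to 1.45 from each of the others. These are descriptions over libraries that share their groups, with no test.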

How the data were processed

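RNA sequencing counts of tibialis anterior were used from 16 libraries in 4 groups. RNA had been isolated in TRI Reagent and turned into libraries by a stranded mRNA kit, per the labels. The submitters' processing notes name cutadapt 1.10, Bowtie2 2.2.8, STAR 2.5.3a, HTSeq 0.6.1p1 and the build GRCm38 (mm10), and the authors deposited raw counts per gene. Which annotation release and strand setting were used in counting was not given in the sources used here. All 30037 gene IDs were matched in GENCODE M21, whose coordinates are on GRCm38.

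Genes were kept by filterByExpr by group. After TMM scaling, the quasi-likelihood F-test of edgeR 4.0.16 (R 4.3.3) was fitted to all libraries with 1 mean per group, leaving 12 residual degrees of freedom. P-values were adjusted by Benjamini-Hochberg over all genes tested, and a gene was called when adjusted p was under 0.05. Each SE is the size of the log2FC divided by the root of its F value. Alternatives used DESeq2 1.42.0, limma 3.58.1, other scalings and filters, a replicate block, and each library left out, and the scripts were tested on simulated data. Within groups, 28 pairs of libraries were checked for duplication, and none agreed within sampling noise (chi-squared per degree of freedom 10.1 to 47.6). Nothing in the labels says that replicates came from separate mice, so p-values measure the spread between these samples.

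The members and gene lists were chosen with earlier results of these data known. Genes outside the family were named by fixed rules: the 5 partners and 5 EF-hand genes with the smallest p between the genotypes, the 5 genes nearest in pattern, and annotated neighbours. A few further partners and S100a3 were named after their values were seen. Some genes these rules pick are not reported here. No protein sequences were used. WT ASO1 had 2 libraries here, fewer than the 3 to 6 per group stated for the series.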

Additional observations from a re-analysis of the deposited data

Results flagged for a closer look

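S100b in Dnm2SL/+ ASO Control replicate 3, at 2.06 CPM, lay far from the other libraries of its group, which were at 0.68 to 1.18 CPM. Of the groups of the members and Dnm2, 24 were checked in this way, and chance marks about 1 in 20. The same library had the highest sum of Schwann cell markers (278 CPM).

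S100a16 differed in direction between the genotypes under ASO1, with a log2FC of 0.22 in WT and −0.44 in Dnm2SL/+, with both treated WT libraries above all WT controls and all 4 treated mutants below all mutant controls. S100a1 did likewise against the mean of its controls, with a log2FC of 0.17 in WT and −0.16 in Dnm2SL/+. The difference between the genotypes was not tested for either gene, since the Dnm2SL/+ contrast is the one from which the family was chosen.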

How the results depend on the processing

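Between the genotypes under ASO Control, 5 members were called under all 21 alternatives, with 4083 to 6590 genes called in all. With no scaling factor 85.9% of those called were higher, against 48.9%, since the median log2FC of all genes then moved from 0.00 to 0.23, and S100a1 had a log2FC of 0.63. Of Dnm2SL/+ ASO1 against WT ASO Control, 2 members were called, but 1 with no filter, 0 with only the groups compared, 0 with a replicate block and 0 to 3 with 1 library left out. The genes called there, 707, became 1253 with DESeq2, 215 with only the groups compared, 446 with the replicate block and 189 to 975 with 1 library left out. For ASO1 in WT, 0 genes were called, against 101 with DESeq2 and 0 to 9 with 1 library left out. For the genotypes under ASO1, 0 members were called, against 1 with no scaling factor, 1 with DESeq2 and 2 without both libraries that stood apart, an alternative chosen after seeing the data. The genes called there, 549, became 302 with no filter, 1175 with DESeq2, 244 with voom and quality weights, 4 with only the groups compared, 123 with the replicate block and 0 to 625 with 1 library left out. The cause was not tested. No member that was called changed direction under any alternative, although calls were lost as given above. The labels do not say whether the replicate numbers pair the samples. Of 18 same-numbered pairs, 3 had deviations correlated over 0.1 (−0.157 to 0.247), which cannot show that pairing or a shared batch was absent. Under the block S100a11 kept its call between the genotypes (adjusted p = 0.023). S100b had the lowest counts of the members, which limits its precision.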
